A study of Homo sapiens with 10 samples.

Results

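The mitosis, spindle and kinetochore genes described here are 57 protein-coding genes that carry a cell through division. They were picked by gene symbol for their known roles, and no measured value entered the rule. The list was chosen with earlier results of these data known, so the shares below are not those of a list set blind to the data. All 57 were found among the 60554 genes of the deposited tables and lay among the 11640 genes tested. The cells were Caco-2, a human colon carcinoma line that differentiates into enterocyte-like cells. Each of the 10 libraries was made by QuantSeq, which places reads at the 3′ ends of poly(A) RNA, so that long and short transcripts yield similar numbers of reads per molecule.

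Every group carried the same background, a stable monoclonal Caco-2 clone with dCas9-KRAB, a catalytically dead Cas9 fused to a repressor domain, introduced by lentivirus and selected with puromycin. In 5 libraries (gCtl) the clone had also received an empty guide plasmid by lentivirus, and in 3 libraries (g1) and 2 libraries (g2) it had received 1 of the 2 guide RNAs against LHFPL3-AS2, a long non-coding RNA. The question was what changes in these cells when LHFPL3-AS2 is repressed. The labels name no separate cultures or dates, so the p-values below measure only the spread between these libraries, which may be technical, and a single clone underlies all of them.

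Entry into mitosis is driven by CDK1 bound to cyclins A and B, which CDC25 phosphatases switch on and which PLK1 and the Aurora kinases assist. Microtubules and motor proteins then build the spindle, kinetochores attach chromosomes to it, and the spindle checkpoint holds back the anaphase-promoting complex until every chromosome is attached. That complex then destroys securin and cyclin B, chromosomes separate, and the central spindle guides cytokinesis. In the intestine, dividing cells occupy the crypt and these genes fall silent as enterocytes mature. Most of them are transcribed in late S phase, G2 and mitosis, so their RNA in a bulk sample follows the share of cells in those phases. Fewer dividing cells and less of these RNAs per cell cannot be told apart here.

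Library totals ran from 3838803 to 8730468 estimated counts. For the mitosis genes g1 replicate 3 stood apart as the lowest library, so the calls are also given without it. LHFPL3-AS2 itself was at 2.23 ± 1.17 RPM (reads scaled to 1000000 counts; SD, n = 5) in gCtl and 3.45 ± 1.63 RPM (n = 5) in the libraries labelled knockdown (two-sided exact permutation test, p = 0.19), on 4.39 to 44.0 counts per library, so these tables hold no lower level of the targeted RNA and the groups are named by their labels. By qPCR, which is not part of these counts, the study reported less LHFPL3-AS2 with each guide than in gCtl. Of 13 enterocyte and Caco-2 markers, 11 were tested and CDX1 was below 1 RPM in every library. The summed level of the 6 fibroblast markers was 5.28 to 10.9 RPM in gCtl and 5.23 to 10.8 RPM in knockdown, and that of the 3 endothelial markers 2.16 to 3.66 and 2.20 to 10.1 RPM. Among the endothelial markers VWF and CDH5 were below 1 RPM in every library, and PECAM1 reached 9.9 RPM, so that sum rests mainly on PECAM1.

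The mitosis genes were lower in knockdown (g1 and g2 pooled, n = 5) than in gCtl (n = 5) for 15 of the 57 genes and higher for none, by edgeR's quasi-likelihood test (Benjamini-Hochberg adjusted p up to 0.05 over all 11640 genes, with a change of 1.5-fold or more). That is 26.3% of the members called lower, against 11% of all genes tested, and 0 called higher against 8.14%. At an unadjusted p under 0.05, 27 members were lower and 1 was higher, beside 18.9% and 18.6% of all genes tested. The fitted log2 fold change was negative for 51 of 57 members, with a median of -0.40, while the median over all genes tested was 0.02. By level (CPM, counts per 1000000 after TMM scaling of library sizes), 10 members had all 5 knockdown libraries below all 5 gCtl libraries, 9 of them called lower, where 8.33% of all genes tested did so. No member had the groups apart in the other direction, which 7.13% of all genes did. In order of fold change the 15 were UBE2C, CDC25B, CDC20, KIF20A, PTTG1, PLK1, KIF18B, AURKB, CCNB2, SMC4, BIRC5, CDCA3, ASPM, NDC80 and CDK1. The call was kept in all 10 fits that left out 1 library each by CDC25B, CDC20, PTTG1, PLK1, CCNB2 and SMC4. UBE2C lost it without gCtl replicate 1, AURKB without gCtl replicate 4, and KIF20A without gCtl replicate 1, 2 or 4. CDK1 lost it without gCtl replicate 1 or 4, g1 replicate 3 or g2 replicate 2, and KIF18B, BIRC5, CDCA3, ASPM and NDC80 lost it in 6 or 7 of the 10 fits. The count of members called was 7 without gCtl replicate 1, 7 without gCtl replicate 4, 9 without gCtl replicate 2 and 9 without g1 replicate 3. Without that g1 library KIF18B, BIRC5, CDCA3, ASPM, NDC80 and CDK1 were no longer called.

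The late cell cycle genes share promoter letters that the choice of members did not use. A short element, usually TTTGAA and less often in the variant form TTCGAA, known as the cell cycle genes homology region, and the CCAAT box are textbook features of promoters of genes expressed in G2 and mitosis. RefSeq promoter windows (GRCh38.p14, 250 bases before to 50 bases after each start) were given for 49 of the 57 members. TTTGAA on either strand was found in the windows of 35 of these 49 genes (71.4%) and of 18.2% of all 27305 genes with a window. TTCGAA, which reads the same on both strands, was found for 3 of 49 members (6.12%) and 1.82% of all genes, and CCAAT on either strand for 37 of 49 (75.5%) and 39.7%. Per window, TTTGAA was present in 62.3% of the members' 61 windows and in 15.2% of all 35116. It was held by 9 of the 13 called members with a window and by 26 of the 36 others. The stretches below run from 110 bases before to 10 bases from the start and are shown so that the element can be seen in its place. They belong to the 4 members called lower with the most negative fold change among those whose window holds either form of the element. Capitals mark either form of the element and the CCAAT box, which reads ATTGG when it lies on the other strand.
CDC25B (chr20:3796200-3796319, plus strand): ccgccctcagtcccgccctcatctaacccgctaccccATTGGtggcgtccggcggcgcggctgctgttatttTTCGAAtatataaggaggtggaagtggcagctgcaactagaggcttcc
CDC20 (chr1:43358871-43358990, plus strand): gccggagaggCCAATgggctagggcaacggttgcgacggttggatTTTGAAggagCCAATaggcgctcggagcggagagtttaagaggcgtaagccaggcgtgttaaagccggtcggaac
PLK1 (chr16:23678779-23678898, plus strand): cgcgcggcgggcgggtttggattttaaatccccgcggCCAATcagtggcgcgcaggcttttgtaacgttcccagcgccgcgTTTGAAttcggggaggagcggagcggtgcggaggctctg
KIF18B (chr17:44947764-44947883, minus strand): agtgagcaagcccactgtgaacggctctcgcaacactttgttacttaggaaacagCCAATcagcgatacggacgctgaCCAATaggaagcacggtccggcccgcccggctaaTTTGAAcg
The element begins 38 bases before the start in CDC25B, 65 in CDC20 and 29 in PLK1, and at base 3 from the start in KIF18B. A match of letters describes the window and shows no binding.

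Among the 9 genes of the cyclin-CDK engine and mitotic entry, 5 were called lower in knockdown (CDC25B, PLK1, CCNB2, CDCA3 and CDK1), none was higher, and all 9 fold changes were negative with a median log2 of -0.61. CDK1, the kinase that starts mitosis (ENSG00000170312.15, chr10:60778331-60794852 in GENCODE 29 on GRCh38), was at 157, 117, 99.9, 132 and 108 CPM in gCtl, 85.5, 95.1 and 64.2 in g1, and 88.0 and 69.8 in g2. All 5 knockdown libraries lay below the lowest gCtl library, and the means were 123 ± 22.7 CPM (SD, n = 5) and 80.5 ± 13.0 CPM (SD, n = 5). The log2 fold change was -0.61 (SE 0.15, adjusted p = 0.0111). CDC25B, a phosphatase that activates CDK1 (chr20:3786772-3806121), was at 31.2, 48.3, 28.6, 34.2 and 29.6 CPM in gCtl, 12.8, 18.1 and 6.21 in g1, and 9.86 and 14.2 in g2. The groups stood well apart, and gCtl replicate 2 was far above the other gCtl libraries. Its log2 fold change was -1.50 (SE 0.25, adjusted p = 0.000821), or 2.83-fold lower, and it was equal with both guides, -1.50 with g1 and -1.50 with g2. PLK1, a kinase that acts at centrosomes and kinetochores (chr16:23677656-23690367), was at 12.5, 15.4, 12.9, 18.5 and 12.5 CPM in gCtl, 7.50, 10.1 and 5.48 in g1, and 5.56 and 6.98 in g2. No knockdown library reached the lowest gCtl value, and the log2 fold change was -1.02 (SE 0.22, adjusted p = 0.00436).

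Of the B-type cyclins, CCNB2 was called lower and CCNB1 was not. CCNB2 (chr15:59105078-59125045) was at 43.7, 44.2, 32.8, 39.5 and 36.4 CPM in gCtl, 24.7, 31.4 and 14.1 in g1, and 21.5 and 15.99 in g2. Its groups did not overlap, and the log2 fold change was -0.88 (SE 0.20, adjusted p = 0.00607). CCNB1, the major mitotic cyclin, was at 169.9, 151, 127, 165 and 163 CPM in gCtl, 128, 149 and 59.8 in g1, and 148 and 122 in g2, with g1 replicate 3 far below every other library and the remaining knockdown libraries inside or just below the gCtl range. Its log2 fold change was -0.36 (SE 0.20, adjusted p = 0.208) and it was not called with either guide. AURKA, the centrosomal Aurora kinase, was at 278, 276, 195, 275 and 219 CPM in gCtl, 230.1, 321 and 136 in g1, and 131 and 165 in g2. Here g1 replicate 2 was the highest of all 10 libraries, while g1 replicate 3 and both g2 libraries lay below every gCtl library. AURKA was called lower with g2, log2 -0.75 (SE 0.26, adjusted p = 0.0447), and not with g1, -0.12 (SE 0.22, adjusted p = 0.747), and the difference between guides was -0.63 (SE 0.28, adjusted p = 0.208). CDCA3, an F-box protein that helps degrade WEE1, was at 22.5, 33.6, 18.8, 27.4 and 13.2 CPM in gCtl, 13.2, 13.1 and 11.2 in g1, and 16.1 and 16.3 in g2. The knockdown libraries were tight but gCtl replicate 5 lay among them. Its log2 fold change was -0.72 (SE 0.23, adjusted p = 0.0305). CCNA2 and CDC25C were not called, with log2 fold changes of -0.24 and -0.26.

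FOXM1 and MYBL2 are transcription factors of the late cell cycle, and FOXM1 drives many G2 and mitosis genes. Neither was called in the pooled comparison. FOXM1 was at 20.0, 25.3, 28.8, 29.1 and 23.2 CPM in gCtl, 26.2, 30.6 and 25.1 in g1, and 15.2 and 12.2 in g2. The g1 libraries lay within or slightly above the gCtl range and both g2 libraries lay below it, and the log2 fold change was -0.89 (SE 0.21, adjusted p = 0.00727) with g2 and 0.10 (SE 0.17, adjusted p = 0.720) with g1. The difference between guides was -0.99 (SE 0.23, adjusted p = 0.0211) and was called. MYBL2 had log2 fold changes of -0.55 with g1 and -0.19 with g2.

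The spindle checkpoint genes were not among the members called in the pooled comparison, 0 of 5. BUB1, a checkpoint kinase at the kinetochore, was at 52.0, 62.4, 37.3, 53.9 and 44.0 CPM in gCtl, 42.7, 54.8 and 29.2 in g1, and 49.1 and 39.0 in g2. Every knockdown library but g1 replicate 3 lay within the gCtl range, and the log2 fold change was -0.22 (SE 0.18, adjusted p = 0.391). MAD2L1, which encodes MAD2, the inhibitor of CDC20, was at 25.5, 18.9, 18.3, 21.9 and 14.8 CPM in gCtl, 11.0, 16.03 and 10.3 in g1, and 32.6 and 23.1 in g2. In g1, 2 of the 3 libraries lay below every gCtl library, g2 replicate 1 was the highest of all 10 libraries and g2 replicate 2 lay within the gCtl range. It was called lower with g1, log2 -0.68 (SE 0.23, adjusted p = 0.0442), it was at 0.49 (SE 0.24, adjusted p = 0.140) with g2, and the difference between guides was called at 1.17 (SE 0.27, adjusted p = 0.0202). BUB1B, BUB3 and TTK had log2 fold changes of -0.35, -0.02 and 0.11, none of them called in any comparison.

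Of the 4 genes of anaphase promotion and separation, 3 were called lower. CDC20, which activates the anaphase-promoting complex (chr1:43358955-43363203), was at 13.5, 21.9, 14.1, 22.6 and 15.5 CPM in gCtl, 7.33, 9.28 and 4.02 in g1, and 8.79 and 6.40 in g2. All knockdown libraries lay below all gCtl libraries, with means of 17.5 ± 4.38 CPM (SD, n = 5) and 7.16 ± 2.10 CPM (SD, n = 5). The log2 fold change was -1.30 (SE 0.25, adjusted p = 0.00200), and CDC20 and CDC25B were the members also called when the fold itself was tested against 1.5 (edgeR glmTreat). UBE2C, the ubiquitin-conjugating enzyme of the same complex (chr20:45812576-45816957), was at 22.0, 9.73, 6.63, 17.1 and 1.94 CPM in gCtl, 1.33, 2.32 and 2.31 in g1, and 6.46 and 1.018 in g2. It ran from 1.94 to 22.0 CPM among the gCtl libraries alone, and gCtl replicate 5 and g2 replicate 1 put the groups in overlap. Its log2 fold change was the most negative of the members and the least precise, -2.08 (SE 0.56, adjusted p = 0.0153). PTTG1, which encodes securin, was at 30.5, 35.6, 24.2, 32.5 and 23.8 CPM in gCtl, 16.8, 16.9 and 5.72 in g1, and 18.6 and 14.7 in g2. Its groups did not overlap, g1 replicate 3 was far below the rest, and the log2 fold change was -1.02 (SE 0.25, adjusted p = 0.00992). ESPL1, which encodes separase, was not called, at -0.27.

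The chromosomal passenger complex corrects wrong attachments and acts in cytokinesis, and 2 of its 4 subunits were called lower. AURKB, its kinase, was at 10.8, 11.8, 8.37, 15.6 and 11.1 CPM in gCtl, 4.999, 9.28 and 3.41 in g1, and 6.81 and 5.96 in g2. The groups touched in g1 replicate 2, which lay above the lowest gCtl library, and the log2 fold change was -0.93 (SE 0.27, adjusted p = 0.0202). BIRC5, which encodes survivin, was at 99.2, 111, 74.3, 105 and 58.2 CPM in gCtl, 43.8, 57.8 and 25.7 in g1, and 70.8 and 72.5 in g2. The g1 libraries lay below every gCtl library and the g2 libraries within the gCtl range. BIRC5 was called with g1, log2 -1.09 (SE 0.24, adjusted p = 0.00619), and not with g2, -0.32 (SE 0.27, adjusted p = 0.405), and the difference between guides was 0.77 (SE 0.29, adjusted p = 0.141). INCENP and CDCA8, the scaffold and borealin, had log2 fold changes of 0.03 and -0.47 and were not called.

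Centromere and kinetochore genes had negative fold changes in 8 of 8 cases, with a median log2 of -0.48. Of these 8 genes 1 (12.5%) was called, a share near the 11% of all genes tested. NDC80, which binds microtubules, was at 41.2, 47.2, 25.3, 38.8 and 24.1 CPM in gCtl, 21.2, 22.8 and 15.5 in g1, and 18.8 and 31.8 in g2. All g1 libraries were below the lowest gCtl library while g2 replicate 2 lay inside the gCtl range, and the log2 fold change was -0.68 (SE 0.22, adjusted p = 0.0377). CENPF, a large kinetochore protein, was at 711, 974, 734, 925 and 664 CPM in gCtl, 583, 800.2 and 239 in g1, and 471 and 549 in g2. It was lowest in g1 replicate 3, and g1 replicate 2 lay inside the gCtl range. Its log2 fold change of -0.60 (SE 0.24, adjusted p = 0.0776) passed the fold but not the adjusted p. The partners of NDC80 in one complex, NUF2, SPC24 and SPC25, had log2 fold changes of -0.47, -0.18 and -0.45. CENPA, the centromeric histone, was at -0.60, CENPE, a kinetochore motor, at -0.49 and HJURP, the chaperone of CENPA, at -0.13, and none of the 6 was called in any comparison.

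The 11 spindle motors and microtubule binders were mixed. In the pooled comparison 2 were called lower, 8 had negative and 3 positive fold changes, and the median log2 was -0.26. KIF18B, a kinesin that shortens microtubules, was at 4.498, 4.77, 5.06, 9.15 and 4.05 CPM in gCtl, 2.999, 4.01 and 2.07 in g1, and 2.87 and 2.18 in g2. The groups did not overlap, though the margin between gCtl replicate 5 and g1 replicate 2 was small, and the log2 fold change was -0.97 (SE 0.32, adjusted p = 0.0367). ASPM, a spindle pole protein, was at 292, 365, 307, 367 and 224 CPM in gCtl, 209.5, 302 and 108 in g1, and 216 and 117 in g2. Inside the gCtl range lay g1 replicate 2, and the other knockdown libraries lay below it, and the log2 fold change was -0.71 (SE 0.25, adjusted p = 0.0474). KIF2C, a kinesin that dismantles microtubules at centromeres, was at 26.7, 27.0, 22.1, 31.3 and 18.3 CPM in gCtl, 11.5, 11.6 and 9.86 in g1, and 25.6 and 20.6 in g2. The g1 libraries lay below every gCtl library and both g2 libraries within the gCtl range. Its log2 fold change was -1.19 (SE 0.21, adjusted p = 0.00118) with g1 and -0.11 (SE 0.22, adjusted p = 0.737) with g2, and the difference between guides was called at 1.08 (SE 0.24, adjusted p = 0.0192).

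KIF11, KIFC1 and TPX2, which help set up the bipolar spindle, were not called lower with either guide. KIF11, which pushes spindle poles apart, was at 30.7, 25.9, 14.5, 28.9 and 27.4 CPM in gCtl, 25.8, 34.2 and 15.8 in g1, and 37.1 and 34.6 in g2. Both g2 libraries were above every gCtl library, g1 lay on both sides of the gCtl mean, and the log2 fold change was 0.21 (SE 0.24, adjusted p = 0.550). KIFC1, which pulls poles together and clusters extra centrosomes, was at 3.75, 6.61, 5.75, 7.22 and 8.44 CPM in gCtl, 8.998, 7.17 and 4.87 in g1, and 11.5 and 12.1 in g2. The g2 libraries were above every gCtl library and g1 overlapped them. KIFC1 was the 1 member called higher with a guide, log2 0.88 (SE 0.31, adjusted p = 0.0464) with g2, and it kept that call in 3 of the 10 fits that left out a library. TPX2, which activates AURKA on the spindle, was at 255, 296, 199, 271 and 229.6 CPM in gCtl, 211, 265 and 136 in g1, and 227 and 237 in g2. Apart from g1 replicate 3 its knockdown libraries lay within the gCtl range, and the log2 fold change was -0.22 (SE 0.17, adjusted p = 0.372). NUSAP1, HMMR, CKAP2 and DLGAP5 had log2 fold changes of -0.32, -0.50, -0.26 and -0.06, and TACC3, a microtubule-stabilising protein, was at 0.35. None of these 5 was called in any comparison.

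All 7 genes of the central spindle and cytokinesis had negative fold changes, with a median log2 of -0.52. Of these 7 genes 1 (14.3%) was called in the pooled comparison, a share near the 11% of all genes tested. KIF20A, a kinesin of the central spindle, was at 20.2, 21.5, 16.6, 24.6 and 14.1 CPM in gCtl, 13.7, 12.2 and 2.92 in g1, and 8.79 and 10.2 in g2. Its groups did not overlap, with g1 replicate 3 far below the other knockdown libraries and g1 replicate 1 just under gCtl replicate 5. The log2 fold change was -1.03 (SE 0.31, adjusted p = 0.0240). ANLN, which encodes the contractile ring scaffold anillin, was at 102, 122, 86.3, 106 and 94.8 CPM in gCtl, 72.3, 71.1 and 47.0 in g1, and 73.0 and 78.2 in g2. The groups were fully apart, but the log2 fold change of -0.58 (SE 0.15, adjusted p = 0.0126) fell just short of the 0.585 that the fold minimum requires, and the gene was called with g1 alone at -0.69 (SE 0.17, adjusted p = 0.00872). KIF23, a motor of the centralspindlin complex, was at 37.0, 36.7, 25.1, 39.0 and 25.9 CPM in gCtl, 23.2, 23.8 and 17.8 in g1, and 21.7 and 31.2 in g2. The g1 libraries lay below the lowest gCtl library and g2 replicate 2 inside the range, and the log2 fold change was -0.47 (SE 0.18, adjusted p = 0.0715). ECT2, which activates RhoA, also passed the adjusted p and not the fold, at -0.52 (SE 0.15, adjusted p = 0.0213). KIF4A, PRC1 and RACGAP1 were not called, at -0.22, -0.46 and -0.78.

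Among the 7 genes of condensin and chromosome structure, 1 (14.3%) was called in the pooled comparison, SMC4, beside 11% of all genes tested. The other condensin subunits in this group were not called. SMC4, a core ATPase of condensin (chr3:160399274-160434962), was at 476, 482, 436, 537 and 312 CPM in gCtl, 235, 265 and 186 in g1, and 242 and 293 in g2. No knockdown library reached the lowest gCtl library, and the log2 fold change was -0.88 (SE 0.16, adjusted p = 0.00183). Its partner SMC2 was at -0.01, and the subunits NCAPD2, NCAPG and NCAPH were at -0.10, -0.14 and 0.08. MKI67, which encodes the proliferation marker Ki-67, was at 486, 664, 479, 618 and 533 CPM in gCtl, 567, 772 and 328 in g1, and 307 and 357 in g2. It was the highest of all 10 libraries in g1 replicate 2 and below every gCtl library in g1 replicate 3 and both g2 libraries. TOP2A, the topoisomerase that untangles chromosomes, was at 1299, 1556, 988, 1461 and 1229 CPM in gCtl, 1376, 1569 and 644 in g1, and 656 and 793 in g2, with the same 3 libraries below every gCtl library and g1 replicate 2 again the highest. With g2 the log2 fold change was -0.74 (SE 0.25, adjusted p = 0.0404) for MKI67 and -0.85 (SE 0.28, adjusted p = 0.0329) for TOP2A, and both were called. With g1 it was -0.00 and -0.13, and the differences between guides, -0.74 (SE 0.27, adjusted p = 0.128) and -0.72 (SE 0.29, adjusted p = 0.171), were not called.

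**Figure D1:**
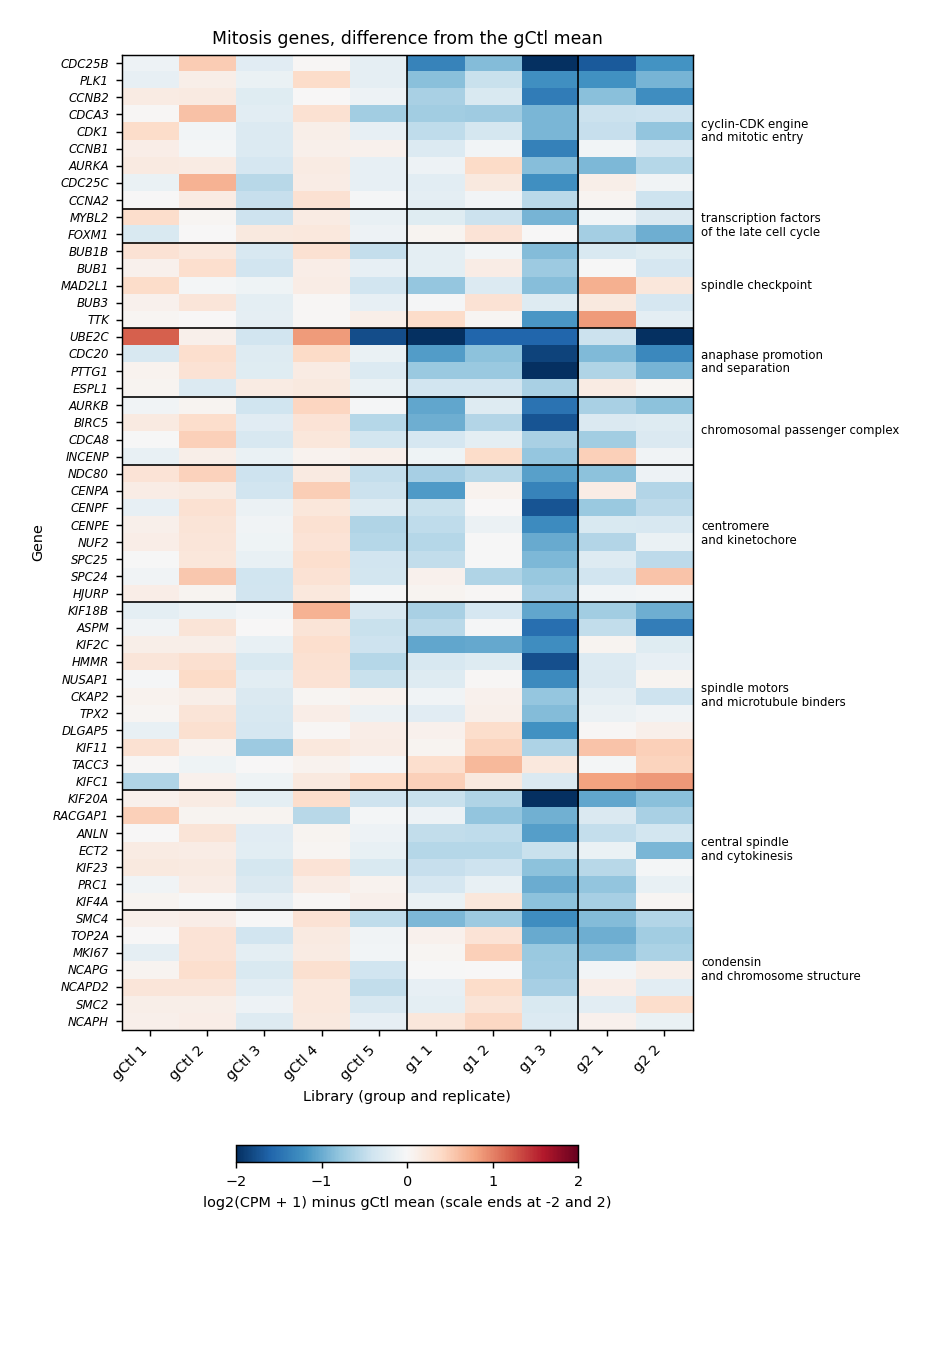
Rows are the 57 members grouped by role, columns the 10 libraries, and colour the log2(CPM + 1) of a gene in a library minus its mean over the 5 gCtl libraries, from blue (lower) to red (higher). The column of g1 replicate 3 is below the gCtl mean in 55 of the 57 rows, and gCtl replicates 3 and 5 are mostly pale blue and gCtl replicates 1, 2 and 4 mostly pale red.

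The spread between libraries of 1 guide was uneven. Within g1, the median SD of log2(CPM + 1) over the members was 0.451, against 0.229 over all genes tested. Within gCtl it was 0.287 against 0.246, and within g2 0.212 against 0.284. Without g1 replicate 3 the spread in g1 was 0.225, an SD over 1 library fewer, with no value over all genes tested beside it. The library g1 replicate 3 was the lowest of all 10 for 46 of 57 members (80.7%), where it was the lowest for 9.15% of all genes tested. It was below both other g1 libraries for 55 of 57 members (96.5%), against 35.2% of all genes tested, and below all 5 gCtl libraries for 51 members, against 28.6%. The members' median deviation from the gCtl mean was -0.93 on the log2 scale in g1 replicate 3, -0.31 in g1 replicate 1 and -0.05 in g1 replicate 2. In g2 it was -0.30 and -0.32.

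The gCtl libraries split too, with medians of 0.07, 0.17 and 0.20 in replicates 1, 2 and 4 and -0.23 and -0.17 in replicates 3 and 5. Replicates 3 and 5 were below the gCtl mean for 52 and 48 of the 57 members. All genes tested had medians between -0.01 and 0.01 in every library. As a share of all counts, the 57 members took 0.671, 0.776, 0.560, 0.753 and 0.552% in gCtl, 0.561, 0.673 and 0.287% in g1, and 0.394 and 0.432% in g2. Depth moved with this in part. With 8730468 counts, g1 replicate 3 was the deepest library, and gCtl replicates 1 and 4, with 3838803 and 4000176, were the shallowest. The 10 most abundant genes took 36.9% of the counts in g1 replicate 3, 42.7 and 38.0% in g2, and 26.4 to 32.1% in the 7 other libraries. The part of depth and of these abundant genes in the members' levels was not tested.

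In g1 replicate 3 the median deviation from the gCtl mean was below 0 in all 9 roles. It was -1.23 over the cyclin-CDK genes, -0.86 over the checkpoint genes, -1.72 over the anaphase genes, -1.12 over the passenger complex and -1.05 over the kinetochore genes. It was -1.03 over the spindle motors and binders, -0.96 over cytokinesis genes and -0.73 over condensin and chromosome genes. Over the 2 transcription factors it was -0.46, and one of them, FOXM1, was at 25.1 CPM in that library beside a gCtl mean of 25.3 CPM. Lists of related genes that were not members had medians nearer 0 in that library than the -0.93 over all members. The median was -0.44 over 9 tubulins, -0.29 over 32 other kinetochore and centromere genes and -0.27 over 18 genes of cohesin, its regulators and condensin II. It was -0.21 over 40 centrosome and centriole genes, -0.18 over 22 DNA replication genes and -0.12 over 17 genes of cell cycle transcription. It was -0.10 over 16 genes of the anaphase-promoting complex and -0.07 over 9 p53 targets and CDK inhibitors. A list of 44 genes, other mitotic kinesins and spindle proteins with some other cell cycle and chromatin genes, stood between at -0.69.

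**Figure D2:**
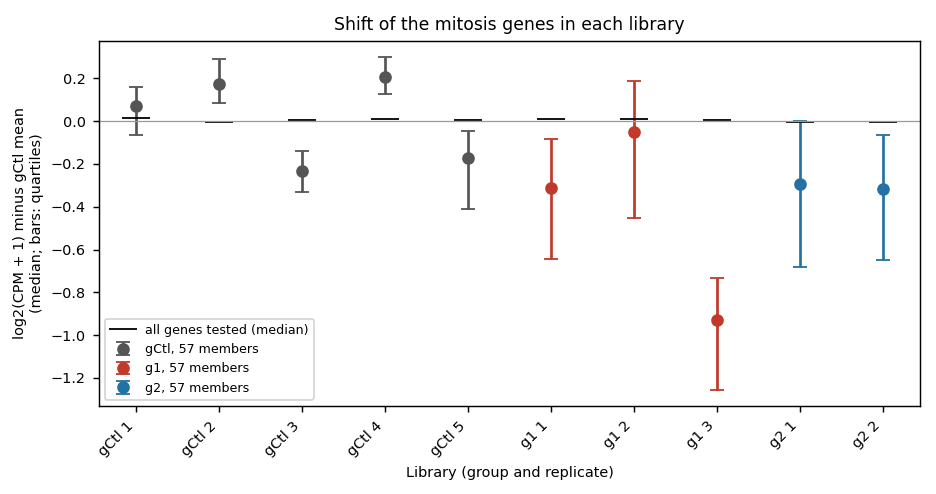
Circles give, for each library, the median over the 57 members of log2(CPM + 1) minus the gCtl mean, with bars from the lower to the upper quartile of the members; black dashes give the median over all 11640 genes tested. The members sit at -0.93 in g1 replicate 3 and between -0.32 and 0.20 in the other 9 libraries, while the dashes stay within 0.01 of 0.

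Taken one guide at a time, g1 gave 17 members called lower and 0 higher, where 9.95% and 6.81% of all genes tested were called. That was 29.8% of the members, with a median log2 fold change of -0.48. With g2, 10 members were called lower (17.5%) and 1 higher (1.75%), where 13% and 10.7% of all genes tested were called, and the median was -0.31. The lower share with g2 was thus close to the background. Both guides were compared with the same 5 gCtl libraries, so their agreement is not independent. Called lower with both were CDK1, CCNB2, CDC20, CDC25B, PLK1 and SMC4, 11 members were called lower with g1 alone, and FOXM1, MKI67, TOP2A and AURKA with g2 alone. The fold change was negative with both guides for 44 members, positive with both for 2, KIFC1 and TACC3, and of opposite sign for 11. No share over all genes tested is given beside these overlaps and signs, so they are not read as particular to the members. A call with one guide and not the other does not show that the guides differ, and the direct comparison called 3 members.

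In g2 against g1, FOXM1 was called lower and KIF2C and MAD2L1 higher, with 3.42% of all genes tested called lower and 1.56% higher. The fold change was positive for 41 of the 57 members and for 5917 of all 11640 genes tested. None of the 3 kept its call when g1 and g2 were fitted without the gCtl libraries. Without g1 replicate 1 there were 0 calls, without g2 replicate 1 there was 1, and without g1 replicate 3 there were 5, with MAD2L1 no longer among them. For g1 against gCtl the count was 6 without g1 replicate 3, 8 without g1 replicate 1, 9 without gCtl replicate 4, and 10 without gCtl replicate 1 or 2. CDC20, CDC25B, BIRC5, KIF2C, PTTG1 and SMC4 were called with g1 in all 10 of these fits, and they were the 6 called without g1 replicate 3. For g2 the count was 3 without g2 replicate 2, 6 without gCtl replicate 4 and 7 without gCtl replicate 2, and CDC25B and PLK1 were called in all 10. Scaling by library totals in place of TMM moved the median of all genes in g2 against gCtl from -0.00 to -0.16, and with it the members' median from -0.31 to -0.47. KIFC1 was then no longer called, and 15 members were called lower.

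**Figure D3:**
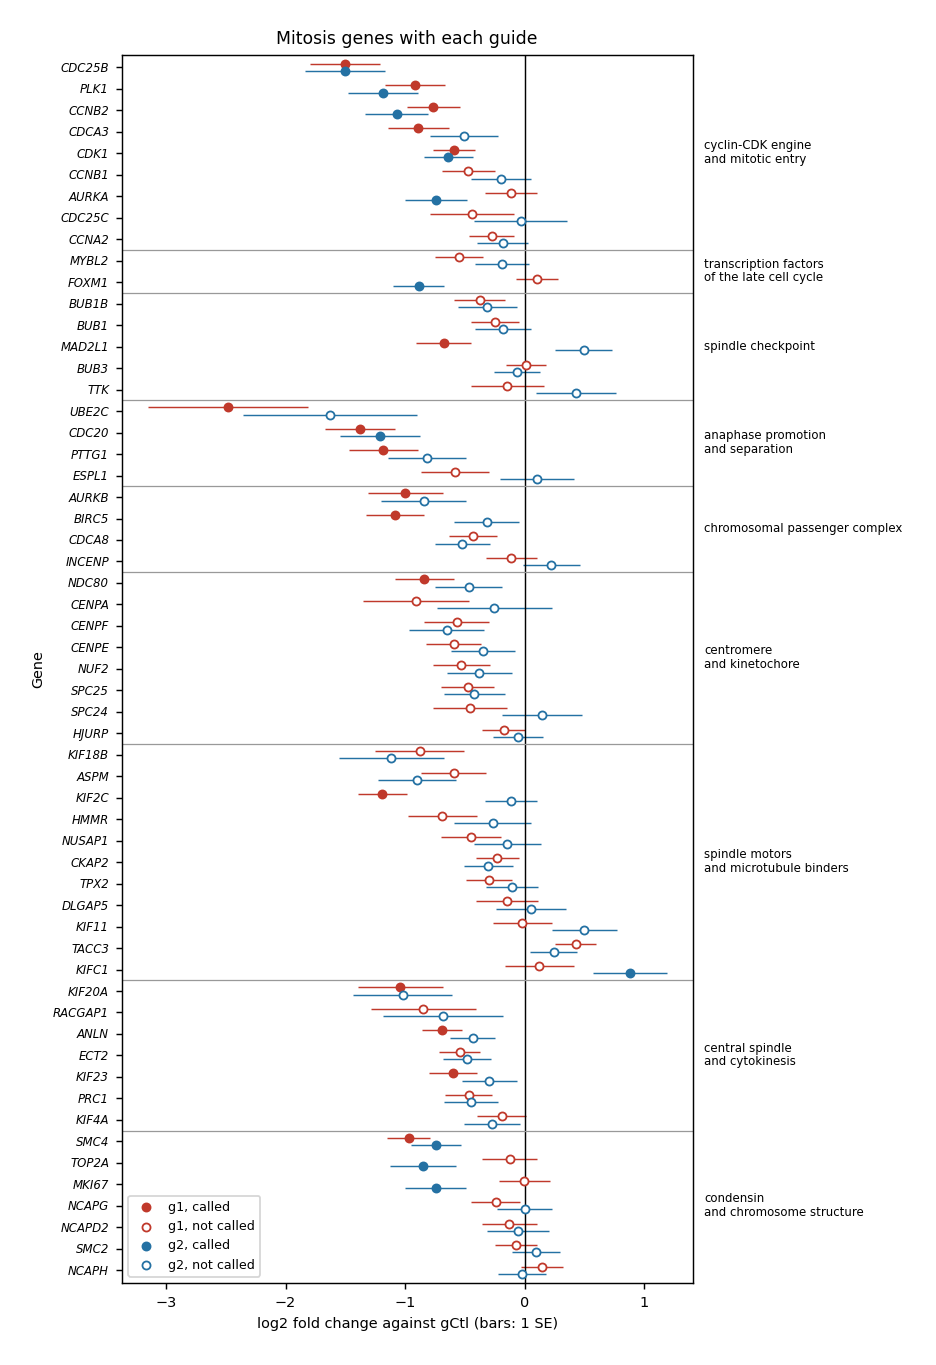
For each of the 57 members, the horizontal axis gives the edgeR log2 fold change against gCtl with g1 (red) and g2 (blue), with bars of 1 SE; filled points passed an adjusted p of 0.05 and a fold of 1.5. CDC25B lies at -1.50 with both guides, while KIF2C (-1.19 and -0.11), MAD2L1 (-0.68 and 0.49) and FOXM1 (0.10 and -0.89) part between the guides.

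Genes that work beside the members were read from lists of 214 genes in 9 groups, beside the 11% of all genes tested that were called lower and the 8.14% called higher. A list of 44 genes held other mitotic kinesins and spindle proteins, and also other cell cycle and chromatin genes such as WEE1, CKS1B and H2AFZ. Of these 44 genes, 11 (25%) were called lower and 1 higher in knockdown against gCtl, with a median log2 fold change of -0.35. H2AFZ, a histone variant, was at -1.94 (SE 0.41, adjusted p = 0.00417), FAM83D, a spindle protein, at -1.52 (SE 0.34, adjusted p = 0.00602), TROAP, a spindle assembly protein, at -1.29 (SE 0.29, adjusted p = 0.00612), and CKS1B, a CDK-binding protein, at -1.25 (SE 0.29, adjusted p = 0.00619). H2AFZ ran from 5.28 to 37.1 CPM in gCtl and from 3.65 to 9.68 CPM in knockdown, so its groups overlapped. CKAP5, a microtubule polymerase, was at 0.00, with a sign that turned negative when library totals replaced TMM. Of 32 other kinetochore and centromere genes, 4 (12.5%) were called lower and 0 higher, with a median of -0.20. That share was near the 11% of all genes. These were MAD2L2, better known for DNA repair than for the checkpoint, at -1.48 (SE 0.32, adjusted p = 0.00436), CENPN at -1.14 (SE 0.26, adjusted p = 0.00602), CENPM at -1.11 (SE 0.27, adjusted p = 0.00799) and ZWINT at -0.84 (SE 0.20, adjusted p = 0.00724). With g1 alone 4 of the 32 (12.5%) were called lower, beside 9.95% of all genes tested, and with g2 alone 8 (25%), beside 13%.

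The 40 centrosome and centriole genes stood near the middle of all genes, with 2 called lower, 1 called higher and a median log2 of -0.07. TUBG1, the gamma-tubulin that seeds microtubules, was at -1.18 (SE 0.29, adjusted p = 0.00891), HAUS7, an augmin subunit, at -1.12 (SE 0.34, adjusted p = 0.0266), and its partner HAUS5 at 0.61 (SE 0.20, adjusted p = 0.0379). The call of TUBG1 was kept in 10 of 10 fits that left out 1 library, that of HAUS7 in 6, and that of HAUS5 in 3, and HAUS5 kept it in 4 of the 11 other settings. PLK4, the kinase of centriole duplication, was at 0.31, PCNT, which encodes pericentrin, at -0.20 and NUMA1, a spindle pole protein, at 0.20, none of them called. Of 9 tubulin genes 2 were called lower, TUBB6 at -1.61 (SE 0.25, adjusted p = 0.000578) and TUBB2A at -1.37 (SE 0.25, adjusted p = 0.00170). With g1 alone 3 of the 9 (33.3%) were called lower, beside 9.95% of all genes tested, with a median of -0.13. With g2 alone it was 4 (44.4%), beside 13%, with a median of -1.08. In g2 against g1, 2 (22.2%) were called lower, beside 3.42%. A list of 18 genes held cohesin, its regulators and the condensin II subunits NCAPG2, NCAPD3 and NCAPH2. Of these 18 genes 2 (11.1%) were called lower, a share near that of all genes. They were SGOL1, which guards cohesin at centromeres, at -0.78 (SE 0.17, adjusted p = 0.00495), and ESCO2, a cohesin acetyltransferase, at -0.62 (SE 0.20, adjusted p = 0.0323). Of 16 genes of the anaphase-promoting complex 1 was called lower, ANAPC11 at -0.61 (SE 0.18, adjusted p = 0.0218). Leaving out 1 library at a time, ESCO2 kept its call in 5 of 10 fits and ANAPC11 in 6.

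Upstream of the members, 17 genes of cell cycle transcription gave 2 called lower (11.8%) and 1 higher (5.88%), with a median of 0.02. The lower share was near the 11% of all genes tested, and 8.14% of all genes were called higher. E2F4 was at -2.42 (SE 0.63, adjusted p = 0.0130), TFDP1, a partner of E2F proteins, at -1.05 (SE 0.18, adjusted p = 0.00118) and E2F5 at 0.91 (SE 0.27, adjusted p = 0.0259). E2F4 ran from 1.94 to 13.7 CPM in gCtl and from 0 to 4.30 CPM in knockdown, so its groups overlapped. It was called lower with g1 and not with g2. Of 22 DNA replication genes, 5 were called lower and 0 higher, and the median was -0.05. They included MCM2, a helicase subunit, at -1.83 (SE 0.37, adjusted p = 0.00326), TK1, thymidine kinase, at -1.17 (SE 0.32, adjusted p = 0.0167), RRM1, a ribonucleotide reductase subunit, at -0.91 (SE 0.18, adjusted p = 0.00291), and GINS2, of the replicative helicase, at -0.64 (SE 0.13, adjusted p = 0.00327). Among 9 p53 targets and CDK inhibitors, GDF15 at -1.67 (SE 0.48, adjusted p = 0.0211) and CDKN2A at -0.97 (SE 0.29, adjusted p = 0.0245) were called lower and CDKN2B at 0.83 (SE 0.29, adjusted p = 0.0472) was called higher. CDKN2B kept its call in 3 of 10 fits that left out 1 library and in 4 of the 11 other settings. In those 10 fits E2F5 kept its call in 5, CDKN2A in 6 and GDF15 in 8. Reads at the 3′ ends of 10 members could also come from an opposite-strand exon within the last 300 bases, among them PLK1, SMC4, KIF20A and FOXM1, and the strand setting of the counting is not given in the sources used here.

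**Figure D4:**
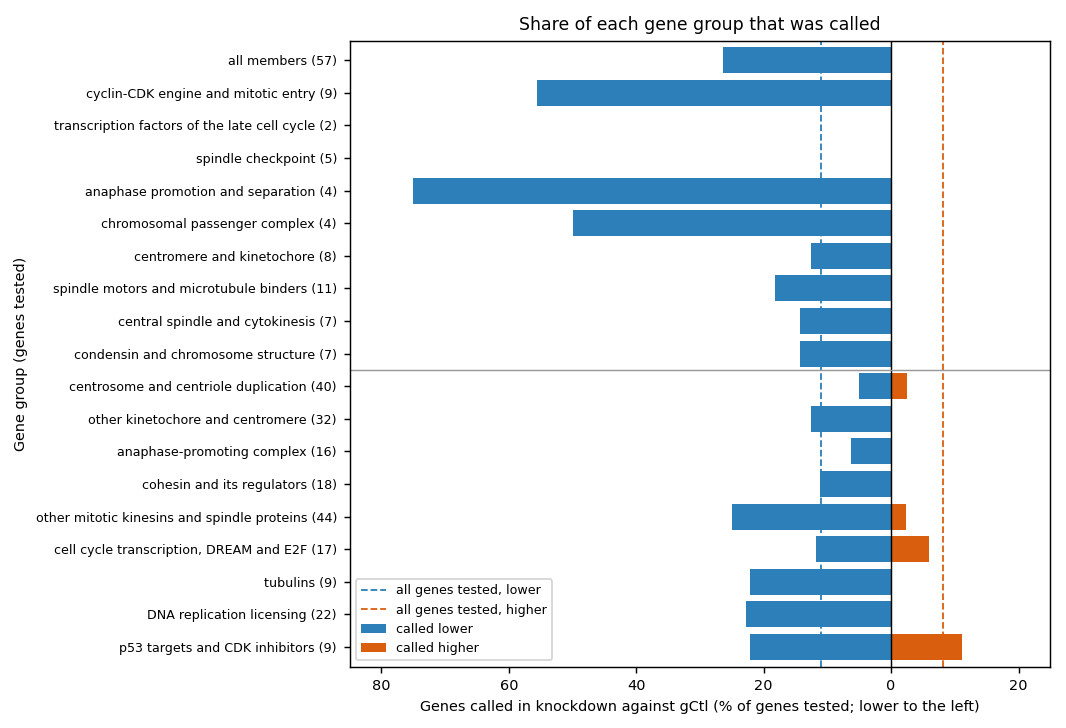
Bars give the share of tested genes of each role of the members (upper part) and of each neighbouring list (lower part) called lower (blue, to the left) or higher (orange, to the right) in knockdown against gCtl, with the number of genes tested in brackets; dashed lines mark all genes tested, 11% and 8.14%. The longest bars are anaphase promotion with 3 of 4 and the cyclin-CDK genes with 5 of 9, and the centrosome genes lie below the dashed line with 2 of 40.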

How the data were processed

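RNA of 10 Caco-2 libraries (gCtl 5, g1 3, g2 2) was read by QuantSeq 3′ tag sequencing, single end. The authors pseudoaligned the reads with Kallisto (version 42.5 in the submitters' processing notes) to GENCODE 24 transcripts and deposited estimated counts per transcript. The deposited expected (estimated) counts were summed per gene, rounded, and tested with edgeR 4.0.16 (TMM, glmQLFit, glmQLFTest, R 4.3.3) on the 11640 protein-coding genes above 3 RPM in at least 20% of libraries. A gene was called at an adjusted p (Benjamini-Hochberg, over all genes tested) up to 0.05 with a change of 1.5-fold or more. The pooled comparison used 2 groups, and the guides came from 1 fit with 3 groups. For limma 3.58.1, TPM were computed from the counts and transcript lengths. Totals of 3838803 to 8730468 limit the low genes. DESeq2 1.42.0, other scalings, filters and leaving out each library were alternatives, and the code was tested on simulated counts.

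The members, roles and lists were chosen with earlier results of these data known. Values in every library were given for members called in any of 4 comparisons, at most 25, and for a fixed set of well-known members, 29 in all; of the other lists, at most 4 called genes each and 5 fixed ones. Replicate numbers were given in accession order and only name the libraries. The leukocyte markers are not reported here.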

Additional observations from a re-analysis of the deposited data

Results flagged for a closer look

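For each member, the 5 gCtl and the 5 knockdown libraries were searched for 1 library far from the rest by Dixon's test at the 95% level, 114 tests in all, of which chance flags about 1 in 20 (5.7 tests). It found 8. In gCtl these were CDC25B in replicate 2, at 48.3 CPM and above the rest, KIF18B in replicate 4, at 9.15 CPM and above the rest, and CKAP2 in replicate 3, at 57.4 CPM and below the rest. In knockdown, g1 replicate 3 lay far below the other 4 libraries for ANLN at 47.0 CPM, HMMR at 36.8 CPM, NCAPG at 40.6 CPM and HJURP at 32.2 CPM, and g2 replicate 1 lay far above them for UBE2C at 6.46 CPM.

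The fold change against gCtl differed between guides for 3 members in edgeR's test of g2 against g1, with a log2 difference of 1.17 for MAD2L1, 1.08 for KIF2C and -0.99 for FOXM1. None of the 3 was called when g1 and g2 were fitted alone or by limma on log2(TPM + 1).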

How the results depend on the processing

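The pooled count of 15 members called was 14 to 19 with DESeq2, other scalings, other filters, limma, no fold minimum or the mean of both guides, all of them lower, and 2 when glmTreat tested the fold against 1.5. For g1, 17 became 3 with glmTreat. For g2, 11 became 7 with limma on log2(TPM + 1) and 1 with glmTreat. For g2 against g1, 3 became 7 with no filter and 0 with limma on log2(TPM + 1), with glmTreat and with g1 and g2 fitted alone. Leaving out 1 library at a time gave 7 to 18 calls in the pooled comparison, 6 to 22 with g1, 3 to 15 with g2 and 0 to 5 between the guides, the causes were not tested, and a lone g2 library was assumed to vary like the other groups. The spread within g1 ranged from 0.225 to 0.605, and g2 without a library has none. The members' median log2 fold change stayed negative in every scaling and with every library left out, -0.28 to -0.53 in the pooled comparison.

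Signs turned for genes near 0. MAD2L1 in the pooled comparison ran from -0.399 to 0.0618 with 1 library left out, above 0 without gCtl replicate 1, g1 replicate 1 or g1 replicate 3. CKAP5 was at -0.0829 with library totals, -0.0314 with filterByExpr, -0.0418 with no filter, -0.0299 with all biotypes and -0.0974 with limma on log2(RPM + 1), and ran from -0.0877 to 0.0771 with 1 library left out. Over named genes and alternatives, 273 values lost their call, 26 gained one and 1668 kept their side. No paired analysis was possible because the labels carry no replicate numbers. Depth limits the genes near 3 RPM most, such as KIF18B and RACGAP1.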
